A study of Mus musculus with 48 samples.

Results

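The transcripts described here encode the proteins that take a mouse embryonic stem cell through G1 of the cell cycle: the D cyclins Ccnd1, Ccnd2 and Ccnd3, the E cyclins Ccne1 and Ccne2, the kinases Cdk2, Cdk4 and Cdk6, the inhibitor Cdkn1b (p27) and the phosphatase Cdc25a. These 10 genes were taken by name from 23862 gene identifiers, and each of the 10 was found. E14TG2a, a mouse embryonic stem cell line, was grown on gelatin with serum, leukemia inhibitory factor, the MEK inhibitor PD0325901 and the GSK3 inhibitor CHIR99021. All groups share that medium and were given 1 µM flavopiridol, which blocks the kinase that releases RNA polymerase II from pausing and is also known to inhibit other cyclin-dependent kinases. Cells were harvested after 30, 60, 120 or 240 min, part of each harvest was kept as total extract, and digitonin followed by a stronger detergent separated cytosol, membrane fraction and nuclei. With 3 independently passaged replicates this gives 12 libraries of polyadenylated RNA per fraction and 48 in all. A gene's value in a library is its level over the 0 min level of the same fraction, so 1 means no change and levels cannot be compared between genes or fractions. The 0 min libraries and untreated time controls were not analysed here.

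In most cells D cyclins are made in response to growth signals and pair with Cdk4 or Cdk6 to start phosphorylation of the retinoblastoma protein. Cyclin E with Cdk2 completes that step and opens S phase, Cdkn1b binds and holds back cyclin and kinase complexes, and Cdc25a removes the inhibitory phosphate from Cdk2. Mouse embryonic stem cells are known for a short G1 with high cyclin E and Cdk2 activity and little D cyclin. Short-lived messages are common among cell cycle regulators, and blocking transcription shows how fast each message is lost.

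The members fell into 3 kinds of time course. Cdkn1b, Cdc25a and Ccne1 fell steadily in each fraction, to mean ratios at 240 min of 0.0145 to 0.105 for Cdkn1b, 0.101 to 0.146 for Cdc25a and 0.244 to 0.306 for Ccne1. Cdk4 stayed between 0.758 and 1.05 in all 48 libraries. Ccnd1, Ccnd2 and Cdk6 had their lowest mean at 60 or 120 min and a higher mean at 240 min in each fraction. Ccnd3 and Ccne2 were scattered between replicates, and so was Cdk2 in total RNA and membrane fraction. In the nucleus Cdk2 fell from a mean ratio of 0.439 at 30 min to 0.108 at 240 min. The files state no read depth, so no counting error is given, and the spread between replicates is the only error. In such bulk libraries a change in the share of cells in a phase and a change in RNA per cell cannot be told apart.

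**Figure D1:**
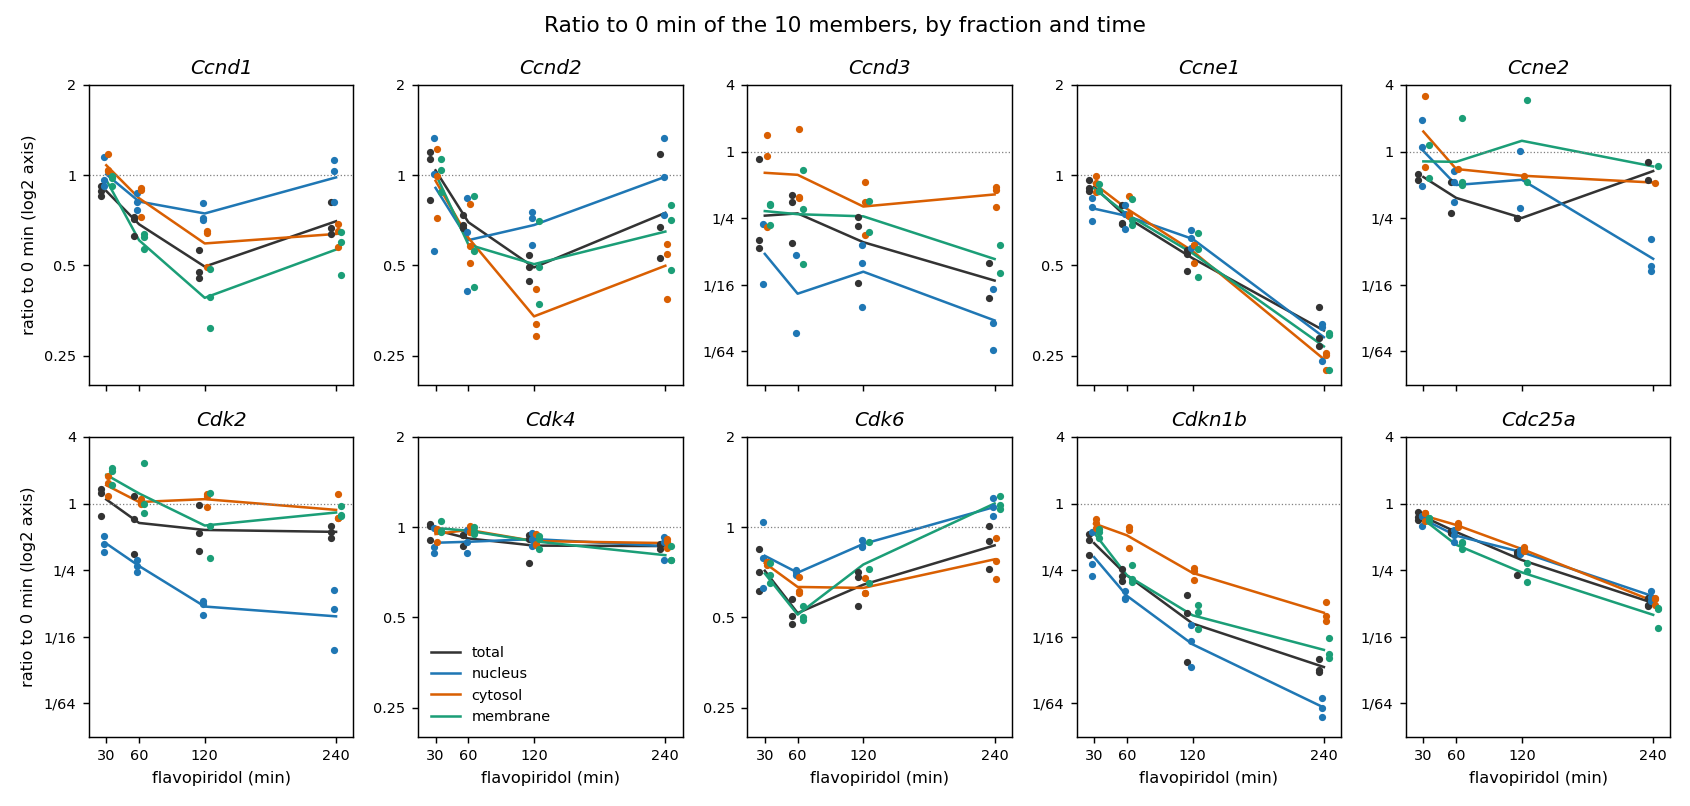
Ratio to the 0 min level (log2 axis) of each of the 10 members against time in flavopiridol in min. Points are single libraries, lines join the geometric means of a fraction, and the dotted line marks no change. Cdkn1b, Cdc25a and Ccne1 fall throughout, Cdk4 stays near 1, and Ccnd1, Ccnd2 and Cdk6 dip and are higher at 240 min.

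A slope of the log2 ratio on time in hours was fitted with limma in each fraction over all genes listed in its 12 libraries, with Benjamini-Hochberg adjustment over all of them. In total RNA, nucleus and membrane fraction 8 of the 10 members passed that filter. In the cytosol 9 did, with Ccnd3. Ccne2 passed in no fraction. In total RNA 3 of 8 members fell, where 56.9% of all genes tested fell. In the nucleus 4 of 8 fell (61.9% of all genes), in the cytosol 5 of 9 (67.1%), and in the membrane fraction 4 of 8 (62.2%). Cdk6 rose in nucleus and membrane fraction, where 3.32% and 4.09% of all genes rose. No member rose in total RNA or cytosol by limma at an adjusted p under 0.05, where 3.39% and 2.95% of all genes did, and at an unadjusted p under 0.05 there was 1 (Cdk6) and 0. The median slope over the members tested was -0.15 log2 per h in total RNA, against -0.22 over all genes, and -0.21, -0.20 and -0.23 against -0.30, -0.28 and -0.26 in nucleus, cytosol and membrane fraction.

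**Figure D2:**
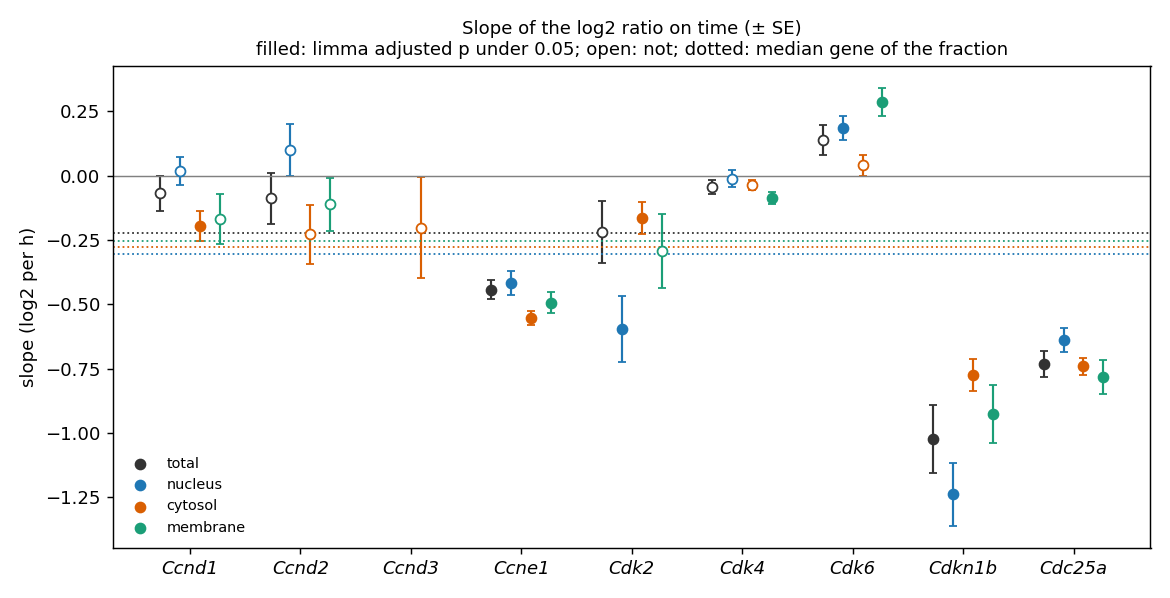
Slope of the log2 ratio on time (log2 per h, ± SE) for the 9 members tested in at least 1 fraction. Filled points had a limma adjusted p under 0.05, open points did not, and dotted lines are the median slope of all genes in each fraction. Cdkn1b lies lowest, at -0.77 to -1.24, and Cdk6 is the member above 0 with filled points.

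Because messages with AU-rich 3′ UTRs are often short-lived, the pentamer ATTTA was looked for on the sense strand of the 3′ UTR of 1 coding transcript per member. It occurred 10 times in the 3439 bases of Cdkn1b, 15 times in the 10217 bases of Cdk6, 6 times in Ccne2, 5 times in Ccnd1, 2 times each in Ccnd2, Cdk2 and Cdc25a, 1 time each in Ccnd3 and Cdk4, and not at all in the 531 bases of Ccne1. Of 9725 genes tested in total RNA that had a complete coding transcript, 65.8% held at least 1 copy and 20.3% held 5 or more, and the median 3′ UTR had 985 bases. Windows of 30 bases are shown from Cdkn1b, Cdk6 and Ccnd1, and from Ccne2, the one member with overlapping copies. Cdkn1b had the steepest negative slope of the members fitted. Cdk6 dipped to its lowest mean at 60 or 120 min and had no negative slope over all times. Positions are GRCm38, the sequences come from GENCODE, each is read 5′ to 3′ on the strand of the gene, and capitals mark the pentamers.
Cdkn1b, chr6:134923273-134923302, plus strand: tttcaggtcctcATTTAttgaaATTTAaaa
Cdk6, chr5:3530815-3530844, plus strand: gctagaatgcaaATTTAtgtATTTAttgtc
Ccnd1, chr7:144931309-144931338, minus strand: ctacagaagagtATTTAtgggaaaggctgc
Ccne2, chr4:11204112-11204141, plus strand: ttactcctagaaATTTATTTATTTAaactt
These matches describe letters in the annotated UTR only, and their relation to the slopes was not tested.

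Among the D cyclins, Ccnd1 (ENSMUSG00000070348, chr7:144929931-144939925, minus strand) had the tighter replicates, and its course was a dip followed by a partial return. In total RNA replicates 1, 2 and 3 had ratios of 0.852, 0.920 and 0.886 at 30 min, 0.626, 0.723 and 0.713 at 60 min, 0.474, 0.455 and 0.564 at 120 min, and 0.637, 0.813 and 0.668 at 240 min. In the membrane fraction they went from 0.979, 0.996 and 0.921 at 30 min through 0.487, 0.309 and 0.394 at 120 min to 0.466, 0.600 and 0.644 at 240 min. In total RNA each 240 min library was above each 120 min library, while in the membrane fraction 1 of the 240 min libraries lay inside the range at 120 min. The nuclear means were 1.01 ± 0.12 (SD, n = 3) at 30 min, 0.746 ± 0.054 at 120 min and 0.992 ± 0.160 at 240 min. The cytosolic mean fell from 1.08 ± 0.08 at 30 min to 0.597 ± 0.088 at 120 min and was 0.638 ± 0.056 at 240 min, with overlapping replicates at the last times. The cytosol was accordingly the fraction in which the slope of Ccnd1 over all times passed the test, at -0.20 ± 0.06 log2 per h (SE, limma adjusted p = 0.0092). That call was lost without replicate 1 (adjusted p = 0.057), without replicate 3 (0.11) and on scaling to mitochondrially encoded mRNAs (-0.036, 0.84). In total RNA the slope was -0.07 ± 0.07 (adjusted p = 0.41), in nuclei 0.02 ± 0.05 (0.77) and in the membrane fraction -0.17 ± 0.10 (0.14).

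With 30, 60 and 120 min alone, Ccnd1 fell in total RNA by 0.55 log2 per h (± 0.08, limma adjusted p = 5.9e-04), in the cytosol by 0.57 (± 0.09, 7.9e-04) and in the membrane fraction by 0.84 (± 0.12, 3.5e-04). The nuclear slope over these times was -0.27 ± 0.10 (adjusted p = 0.055). Over this shorter window 5 of 8 members fell in total RNA, 3 of 8 in the nucleus, 5 of 9 in the cytosol and 6 of 8 in the membrane fraction, where 50.8%, 39.5%, 50.3% and 53.7% of all genes did. Ccnd2 was among them in total RNA (-0.69 ± 0.11), cytosol (-0.98 ± 0.16) and membrane fraction (-0.60 ± 0.22), with limma adjusted p-values of 9.97e-04, 9.05e-04 and 0.039.

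The change from 120 to 240 min was then tested directly, by a limma contrast that was chosen after these values had been seen. Ccnd1 was higher at 240 min in total RNA by 0.50 ± 0.12 on the log2 scale (SE, adjusted p = 0.010), a 1.42-fold difference, and in the membrane fraction by 0.53 ± 0.17 (adjusted p = 0.030), a 1.45-fold difference. In the nucleus the difference was 0.40 ± 0.16 (adjusted p = 0.067), and in the cytosol it was 0.11 ± 0.13 (adjusted p = 0.56). The median gene went the other way, by -0.25 in total RNA and -0.38 in the membrane fraction. The calls for Ccnd1 were lost without replicate 2 (0.33 in total RNA, adjusted p = 0.20, and 0.32 in the membrane fraction, 0.29), without replicate 3 (0.63, 0.058, and 0.45, 0.24), in total RNA on scaling to mitochondrially encoded mRNAs (0.26, 0.25), and in the membrane fraction with a replicate block (adjusted p = 0.051). The annotated exons of Ccnd1 share 23.4% of their bases with LTO1 on the other strand, and whether the authors counted by strand is not given in the sources used here, though the library kit keeps strand. LTO1 itself fell in each fraction, with slopes of -0.25 to -0.36 log2 per h.

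**Figure D3:**
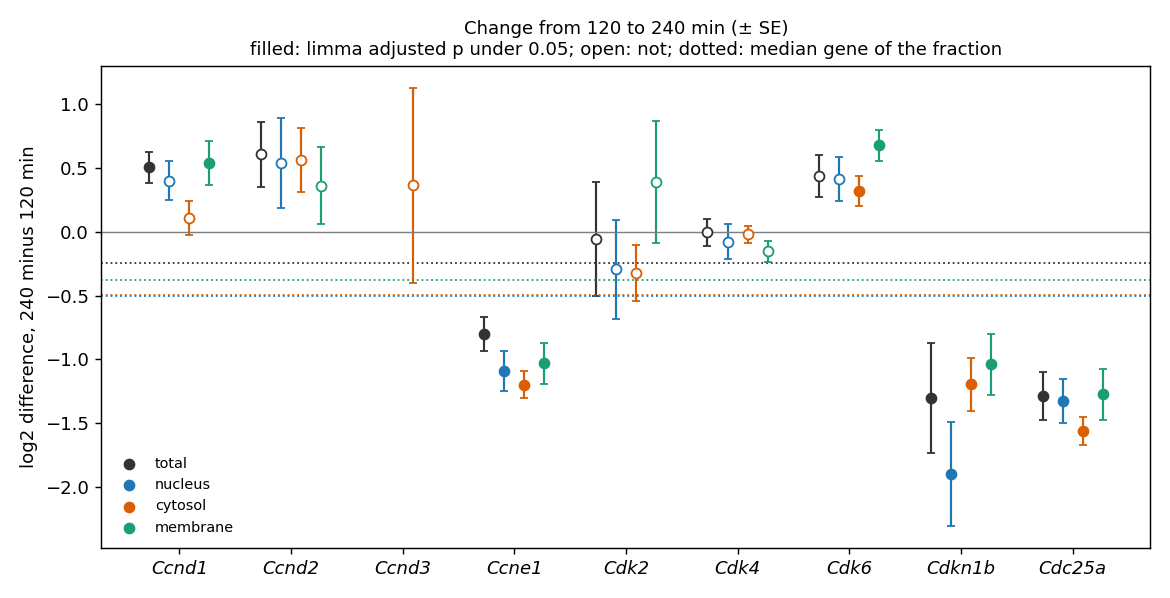
Difference of the log2 ratio between 240 and 120 min (± SE) for the 9 members tested in at least 1 fraction. Filled points had a limma adjusted p under 0.05, open points did not, and dotted lines mark the median gene of each fraction. Ccnd1, Ccnd2 and Cdk6 lie above 0 in each fraction, whereas Ccne1, Cdkn1b and Cdc25a lie below the dotted lines.

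Ccnd2 (ENSMUSG00000000184, chr6:127125162-127152193, minus strand) followed a like course with more scatter. In the cytosol its replicates had ratios of 0.997, 0.722 and 1.22 at 30 min, 0.799, 0.581 and 0.509 at 60 min, 0.291, 0.318 and 0.417 at 120 min, and 0.547, 0.587 and 0.386 at 240 min. The 240 min replicates overlapped with those at 120 min because of the last of them. The differences between 240 and 120 min were 0.36 to 0.60 on the log2 scale in the 4 fractions, with limma adjusted p-values from 0.092 to 0.38, so none passed. Its slopes over all times, -0.23 to 0.10 log2 per h, did not pass either (adjusted p = 0.096 to 0.47). The slope of the difference between Ccnd1 and Ccnd2 within a library was -0.08 to 0.03 log2 per h, with standard errors of 0.06 to 0.09, and none of these passed an exact permutation test over 369600 arrangements of the times (two-sided, adjusted p = 0.58 to 0.87 over 14 tests). Ccnd2 also shares 3.95% and 3.91% of its exon bases with a pair of antisense transcripts.

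Ccnd3 (ENSMUSG00000034165, chr17:47505051-47599691, plus strand) was listed in all 12 libraries of the cytosol alone. There its replicates had 1.41, 0.209 and 0.903 at 30 min, 0.380, 0.387 and 1.59 at 60 min, 0.176, 0.529 and 0.347 at 120 min and 0.316, 0.451 and 0.482 at 240 min. Its pooled replicate SD of 1.03 on the log2 scale was larger than that of 98.1% of genes in the cytosol, and its slope of -0.20 ± 0.20 log2 per h had a limma adjusted p of 0.38. In the nucleus the 10 values lay between 0.0161 and 0.221, and all but 1 of them were below each cytosolic value. With genes listed in at least 9 libraries, Ccnd3 fell in total RNA by 0.60 log2 per h (± 0.23, adjusted p = 0.042), while slopes of -0.47 ± 0.24 (nucleus, 0.11) and -0.41 ± 0.19 (membrane fraction, 0.084) did not pass. A pseudogene of Ccnd3 is annotated in the mouse genome, and reads shared with it could move these values, which were not tested for it. The exons of Ccnd3 share 4.11% of their bases with Bysl on the other strand, which fell in each fraction, at -0.24 to -0.30 log2 per h.

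The E cyclin Ccne1 (ENSMUSG00000002068, chr7:38097984-38107534, minus strand) was the cyclin that fell in each fraction. In the cytosol its replicates had ratios of 0.943, 0.882 and 0.991 at 30 min, 0.741, 0.732 and 0.850 at 60 min, 0.585, 0.508 and 0.585 at 120 min, and 0.225, 0.252 and 0.255 at 240 min. In the nucleus they had 0.705, 0.836 and 0.785 at 30 min and 0.312, 0.319 and 0.240 at 240 min. No replicate at 240 min overlapped with one at 120 min in any fraction. The slopes were -0.55 ± 0.03 log2 per h in the cytosol (limma adjusted p = 4.6e-09), -0.50 ± 0.04 in the membrane fraction (3.3e-07), -0.44 ± 0.04 in total RNA (4.1e-07) and -0.42 ± 0.05 in the nucleus (5.4e-06). The nuclear call was lost over 30, 60 and 120 min alone (-0.23, adjusted p = 0.076) and on scaling to mitochondrially encoded mRNAs (-0.25, 0.11). Half-lives from a single exponential were 113 ± 2.03 min in the cytosol (SD over the 3 replicate series), 123 ± 6.19 in the membrane fraction, 127 ± 13.7 in total RNA and 166 ± 30.1 in the nucleus, where the median gene had 213, 219, 244 and 176 min. The nuclear median had an SD of 92.4 min over the replicate series, against 13.5 to 22.8 in the other fractions. Between nucleus and cytosol the slopes of Ccne1 differed by 0.14 ± 0.05 log2 per h (adjusted p = 0.056).

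Ccne2 (ENSMUSG00000028212, chr4:11191351-11204779, plus strand) was missing from at least 1 library of each fraction. Its nuclear replicates, 11 in number, had 0.489, 1.92 and 1.10 at 30 min and 0.0923, 0.0827 and 0.162 at 240 min, which do not overlap. With genes listed in at least 9 of 12 libraries it fell in the nucleus by 0.85 log2 per h (± 0.16, limma adjusted p = 6.3e-04). In total RNA and membrane fraction 8 libraries each listed it and in the cytosol 5 did, and no slope was fitted there. Its exons overlap those of Ints8 on the other strand over 17.4% of their bases, and Ints8 fell in each fraction, with slopes of -0.41 to -0.73 log2 per h. Whether reads of Ints8 enter the values of Ccne2 was not tested.

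Of the kinases, Cdk4 (ENSMUSG00000006728, chr10:127063534-127067920, plus strand) changed least. In the cytosol its replicates had ratios of 0.893, 0.969 and 0.987 at 30 min, 0.963, 0.966 and 1.01 at 60 min, 0.949, 0.878 and 0.872 at 120 min, and 0.911, 0.893 and 0.853 at 240 min. The 60 min libraries lay above those at 120 and 240 min, and the other times overlapped. In the membrane fraction the 240 min replicates had 0.779, 0.778 and 0.867, lower than each at 30 min (0.968, 0.965 and 1.05), and there Cdk4 fell by 0.09 log2 per h (± 0.02, limma adjusted p = 0.0050), a call that was lost without replicate 1 (-0.08, 0.082) and over 30, 60 and 120 min alone (-0.10, 0.12). In cytosol, total RNA and nucleus the slopes were -0.04 ± 0.02 (adjusted p = 0.11), -0.04 ± 0.03 (0.21) and -0.01 ± 0.03 (0.78). The replicates of Cdk4 agreed within a pooled SD of 0.06 to 0.12 on the log2 scale, smaller than for all but 1.42% to 8.47% of genes in the 4 fractions. These slopes rest on the authors' scaling, and with the median gene of every library set to 0 Cdk4 rose in each fraction, by 0.17 to 0.28 log2 per h. Cdk4 shares 19.7% of its exon bases with Tspan31 on the other strand, which fell in each fraction, at -0.24 to -0.45 log2 per h.

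Cdk6 (ENSMUSG00000040274, chr5:3341485-3531008, plus strand), the other partner of the D cyclins, dipped and then returned to above its starting level in nucleus and membrane fraction. In the membrane fraction its replicates had 0.758, 0.695 and 0.652 at 30 min, 0.501, 0.546 and 0.489 at 60 min, 0.653, 0.725 and 0.894 at 120 min, and 1.27, 1.18 and 1.15 at 240 min. In the nucleus they had 0.690, 0.717 and 0.708 at 60 min, 0.908, 0.862 and 0.869 at 120 min, and 1.25, 1.16 and 1.09 at 240 min. In both fractions 60, 120 and 240 min did not overlap, and each 240 min library was above 1. In total RNA the 240 min libraries had 0.903, 1.01 and 0.723, and in the cytosol 0.922, 0.773 and 0.669. Relative to 0 min these levels were lower than those in nucleus and membrane fraction. By slope over all times Cdk6 rose in the membrane fraction by 0.29 ± 0.06 log2 per h (limma adjusted p = 5.3e-04) and in the nucleus by 0.19 ± 0.05 (0.0039), whereas total RNA had 0.14 ± 0.06 (0.062) and cytosol 0.04 ± 0.04 (0.41). The nuclear call was lost without replicate 1, and neither slope passed over 30, 60 and 120 min alone (membrane fraction 0.14 ± 0.15, adjusted p = 0.46). On scaling to mitochondrially encoded mRNAs the membrane call was lost too.

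From 120 to 240 min Cdk6 was higher in the membrane fraction by 0.68 ± 0.12 on the log2 scale (limma adjusted p = 0.0013), a 1.60-fold difference that passed under each alternative tried for it. In the cytosol the difference was 0.32 ± 0.12 (adjusted p = 0.042), and this call was lost when any 1 replicate was left out (adjusted p = 0.051 to 0.25) and with a replicate block (0.053). In total RNA and nucleus it was 0.44 ± 0.17 (adjusted p = 0.068, and 0.035 with the block) and 0.41 ± 0.17 (0.086). Over all members, 1 of 8 was higher at 240 than at 120 min in total RNA, 0 of 8 in the nucleus, 1 of 9 in the cytosol and 2 of 8 in the membrane fraction, where 5.92%, 1.97%, 2.78% and 3.72% of all genes were. With a replicate block the counts were 2, 0, 0 and 1, beside 6.42%, 1.74%, 2.78% and 3.38%. The nuclear 0 is by limma at an adjusted p under 0.05, and 2 members (Ccnd1 and Cdk6) had an unadjusted p under 0.05. Ccne1, Cdkn1b and Cdc25a were lower at 240 than at 120 min in each fraction, where 29.2%, 34.3%, 47.9% and 37.6% of all genes were lower (total RNA, nucleus, cytosol and membrane fraction). For Cdkn1b the call in total RNA (-1.305 ± 0.432, limma adjusted p = 0.039) was lost without replicate 2 (0.31) or 3 (0.24). Its nuclear call was lost without replicate 2 (0.058), and its membrane call without replicate 1 or 2 (both 0.11). For Ccne1 the call in total RNA was lost without replicate 3 (0.061). Scaled to mitochondrially encoded mRNAs, 0 members were lower in the nucleus, where 1.65% of all genes were.

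Within a library the log2 ratio of Cdk4 minus that of Cdk6 is free of library scaling. In the membrane fraction this difference went from 0.50 ± 0.17 (SD, n = 3) at 30 min through 0.26 ± 0.21 at 120 min to -0.57 ± 0.15 at 240 min, a slope of -0.37 ± 0.06 log2 per h (exact permutation test, two-sided, adjusted p = 0.0063). The slope was -0.39, -0.36 and -0.37 in replicates 1, 2 and 3. In the nucleus it was -0.20 ± 0.04 (adjusted p = 0.0070), in total RNA -0.18 ± 0.05 (0.014) and in the cytosol -0.08 ± 0.04 (0.19), by the same exact permutation test, and all 12 replicate series had a negative slope. In total RNA the difference was 0.45 ± 0.16 at 30 min, 0.43 ± 0.03 at 120 min and -0.0077 ± 0.22 at 240 min. None of the 4 slopes passed over 30, 60 and 120 min alone (adjusted p = 0.52 to 0.75), nor without replicate 3 (0.068 to 0.28), without replicate 2 total RNA did not (0.060), and without replicate 1 the membrane fraction alone passed (0.044).

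**Figure D4:**
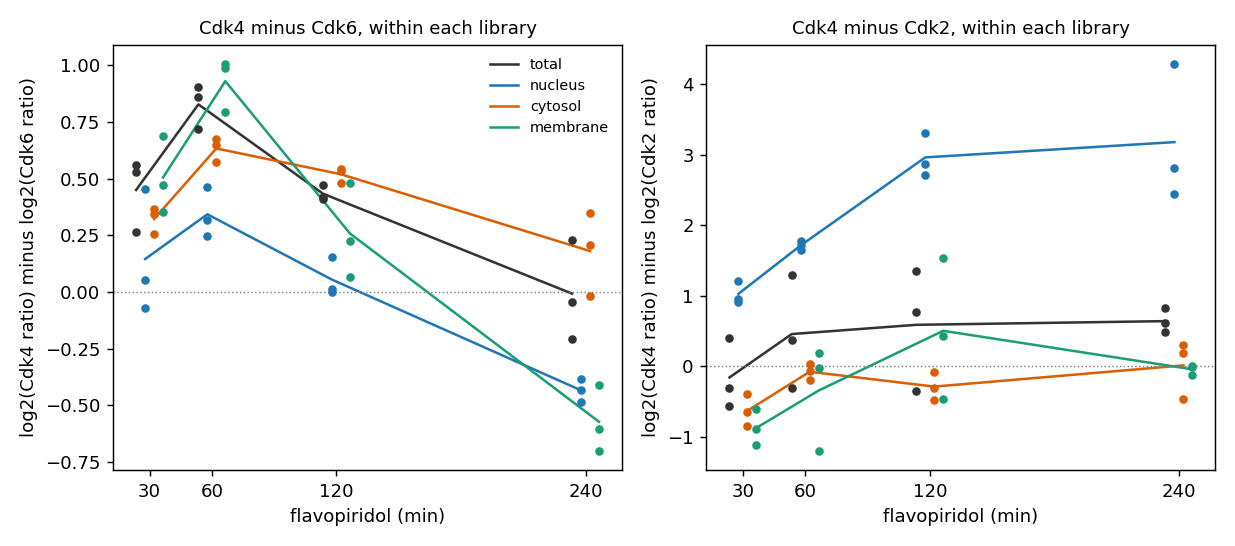
Within-library difference of log2 ratios, Cdk4 minus Cdk6 (left) and Cdk4 minus Cdk2 (right), against time in flavopiridol in min. Points are the 3 replicates, lines join their means, and 0 (dotted) means equal ratios to 0 min. The membrane and nuclear points of Cdk4 minus Cdk6 pass below 0 at 240 min, and the nuclear points of Cdk4 minus Cdk2 rise from 1.03 at 30 min to 3.18 at 240 min.

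Cdk2 (ENSMUSG00000025358, chr10:128697939-128705031, minus strand), the partner of cyclin E, behaved unlike both. Its nuclear replicates had ratios of 0.369, 0.514 and 0.435 at 30 min, 0.239, 0.273 and 0.311 at 60 min, 0.125, 0.0974 and 0.133 at 120 min, and 0.0478, 0.164 and 0.112 at 240 min. The cytosolic ones had 1.17, 1.52 and 1.77 at 30 min, 1.18, 0.925 and 1.21 at 120 min and 0.736, 1.22 and 0.748 at 240 min. Nuclear and cytosolic ranges did not overlap at any time. The nucleus fell by 0.60 log2 per h (± 0.13, limma adjusted p = 0.0011), and the cytosol fell by 0.16 (± 0.06, 0.031). The nuclear half-life, fitted to the ratios, was 58.5 ± 12.8 min, shorter than the nuclear log2 slope corresponds to. The nuclear mean was 0.118 at 120 min and 0.108 at 240 min (limma contrast -0.29 ± 0.39 on the log2 scale, adjusted p = 0.59). The cytosolic call was lost without replicate 1 (adjusted p = 0.16), without replicate 3 (0.21), over 30, 60 and 120 min alone (0.20) and on scaling to mitochondrially encoded mRNAs (-0.0050, 0.98), and the nuclear call on that scaling (-0.43, 0.10). In total RNA and in the membrane fraction the replicates spread widely, with pooled SDs of 0.60 and 0.65 on the log2 scale, and slopes of -0.22 ± 0.12 (0.14) and -0.29 ± 0.15 (0.094) did not pass. Against Cdk4 within a library, Cdk2 lost 0.59 ± 0.14 log2 per h in the nucleus (exact permutation test, adjusted p = 0.0070), while the other 3 fractions gave 0.13 to 0.20 (adjusted p = 0.19 to 0.39). By the same test this nuclear difference missed without replicate 1 (0.44, adjusted p = 0.18) and without replicate 3 (0.63, 0.068). Among the 14 pair tests 4 passed, and without replicate 1 or 3 of each fraction 1 and 0 passed.

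Cdkn1b (ENSMUSG00000003031, chr6:134920401-134925513, plus strand), the inhibitor, had the steepest negative slope in each fraction among the members fitted there. Its differences in slope from the other members were not tested. Its nuclear replicates had ratios of 0.223, 0.554 and 0.285 at 30 min, 0.139, 0.138 and 0.164 at 60 min, 0.0575, 0.0802 and 0.0331 at 120 min, and 0.0119, 0.0142 and 0.0174 at 240 min. The cytosolic ones had 0.597, 0.721 and 0.670 at 30 min, 0.612, 0.393 and 0.572 at 60 min, 0.204, 0.262 and 0.246 at 120 min, and 0.0970, 0.0873 and 0.130 at 240 min. At each time each cytosolic library was above each nuclear one. The slopes were -1.24 ± 0.12 log2 per h in the nucleus (limma adjusted p = 2.2e-06), -1.02 ± 0.13 in total RNA (2.2e-05), -0.93 ± 0.11 in the membrane fraction (1.2e-05) and -0.77 ± 0.06 in the cytosol (2.1e-07). Its half-life was 28.7 ± 4.41 min in the membrane fraction, 36.5 ± 3.74 in total RNA and 68.7 ± 10.1 in the cytosol, shorter than for all but 1.74%, 3.31% and 10.7% of genes. The nuclear value of 27.1 ± 14.8 min spread more, and 1 nuclear 30 min library, replicate 1, had a low median over all genes. In membrane fraction, total RNA and nucleus these half-lives, fitted to the ratios, were shorter than the log2 slopes above correspond to. The SD over replicate series does not cover that difference between fits in membrane fraction and total RNA.

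Cdc25a (ENSMUSG00000032477, chr9:109875579-109893895, plus strand) fell in each fraction. In total RNA its replicates had ratios of 0.703, 0.833 and 0.754 at 30 min, 0.558, 0.562 and 0.541 at 60 min, 0.228, 0.353 and 0.365 at 120 min, and 0.122, 0.118 and 0.140 at 240 min. No 2 neighbouring times overlapped. The slopes were -0.78 ± 0.07 log2 per h in the membrane fraction (limma adjusted p = 3.8e-07), -0.74 ± 0.03 in the cytosol (1.7e-09), -0.73 ± 0.05 in total RNA (1.4e-07) and -0.64 ± 0.05 in the nucleus (2.4e-07). Half-lives were 56.7 ± 6.67, 85.9 ± 11.2, 73.9 ± 9.81 and 89.6 ± 12.3 min in the same order. In the membrane fraction the half-life was shorter than the log2 slope there corresponds to. For Cdk6 no fraction gave a finite half-life, as for 12.4% to 18.1% of all genes.

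Whether a member fell at different rates in different fractions was tested as the interaction of time with fraction. Nucleus and cytosol differed for 2 of 8 members, Cdkn1b by -0.46 ± 0.13 log2 per h (limma adjusted p = 0.017) and Cdk2 by -0.43 ± 0.14 (0.034), both steeper in the nucleus, where 8.3% of all genes were steeper there and 12.3% were shallower. Membrane fraction and cytosol differed for 1 of 8, Cdk6, by 0.25 ± 0.07 (adjusted p = 0.033), where 4.94% of all genes were higher in slope in the membrane fraction and 1.76% lower. Nucleus and membrane fraction differed for 0 of 8 by limma, also at an unadjusted p under 0.05, where 2.19% and 6.16% of all genes did. The 3 differences missed the threshold when any 1 replicate was left out (adjusted p = 0.051 to 0.32), with sizes of -0.42 to -0.50 for Cdkn1b, -0.33 to -0.51 for Cdk2 and 0.20 to 0.29 for Cdk6. With 1 replicate left out, 4.84% to 11.1% of all genes differed between nucleus and cytosol and 1.93% to 2.98% between membrane fraction and cytosol. Fractions of 1 harvest come from the same cells, and with the harvest as a block, a fit added after the values had been seen, 5 of 8 members differed between nucleus and cytosol, where in the same fit 14.3% of all genes were higher in slope in the nucleus and 9.46% lower. Beside Cdkn1b and Cdk2 these were Ccnd1 (0.21 ± 0.04, limma adjusted p = 0.0050), Ccnd2 (0.33 ± 0.11, 0.049) and Cdk6 (0.15 ± 0.05, 0.040), each with the higher slope in the nucleus.

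The other genes of the pathway were followed as a list of 39, of which 35 had a row in the files (E2f5, Tfdp1, Cdkn1c and Ambra1 were not analysed here). In total RNA 22 of the 28 tested fell, in the nucleus 23 of 27, in the cytosol 28 of 29 and in the membrane fraction 24 of 27, beside the shares of all genes given above. None rose in any fraction by limma, also at an unadjusted p under 0.05. The median slopes were -0.30, -0.42, -0.43 and -0.37 log2 per h, where the median over all genes was -0.22, -0.30, -0.28 and -0.26. The steepest falls were those of Cdkn2b, which inhibits Cdk4 and Cdk6, and Cdkn1a (p21), of the same family as Cdkn1b, in cytosol (-1.79 ± 0.16 and -1.69 ± 0.12) and membrane fraction (-1.40 ± 0.15 and -1.38 ± 0.13). In total RNA they were Cdkn2b (-1.51 ± 0.13) and Fbxo5, an inhibitor of the anaphase-promoting complex (-1.41 ± 0.15), and in the nucleus Wee1, the kinase that opposes Cdc25 (-1.25 ± 0.07), and Cdkn2b (-1.18 ± 0.08). Cdkn1a fell by 1.37 ± 0.20 log2 per h in total RNA and by 1.04 ± 0.15 in the nucleus, so both Cip/Kip inhibitors with a value fell in each fraction.

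None of that list rose, and the 2 slopes nearest to 0 among those that passed were those of Cdc25c (-0.15 ± 0.04) and Ccna2 (-0.21 ± 0.05) in total RNA, Ccna2 (-0.11 ± 0.05) and Cdkn2a (-0.15 ± 0.05) in the nucleus, Mnat1 (-0.08 ± 0.03) and Cdkn2a (-0.18 ± 0.05) in the cytosol, and Cdk1 (-0.18 ± 0.05) and Tfdp2 (-0.22 ± 0.04) in the membrane fraction. Cdk1 and Ccna2 act in S phase and mitosis, Mnat1 is a subunit of the kinase that activates cyclin-dependent kinases, and Cdkn2a encodes p16 and Arf. Of the relatives of Cdc25a, Cdc25c fell in each fraction, at -0.15 to -0.33 log2 per h, and Cdc25b, tested in the cytosol alone, had -0.41 ± 0.13 (limma adjusted p = 0.011). Differences between them and Cdc25a were not tested.

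**Figure D5:**
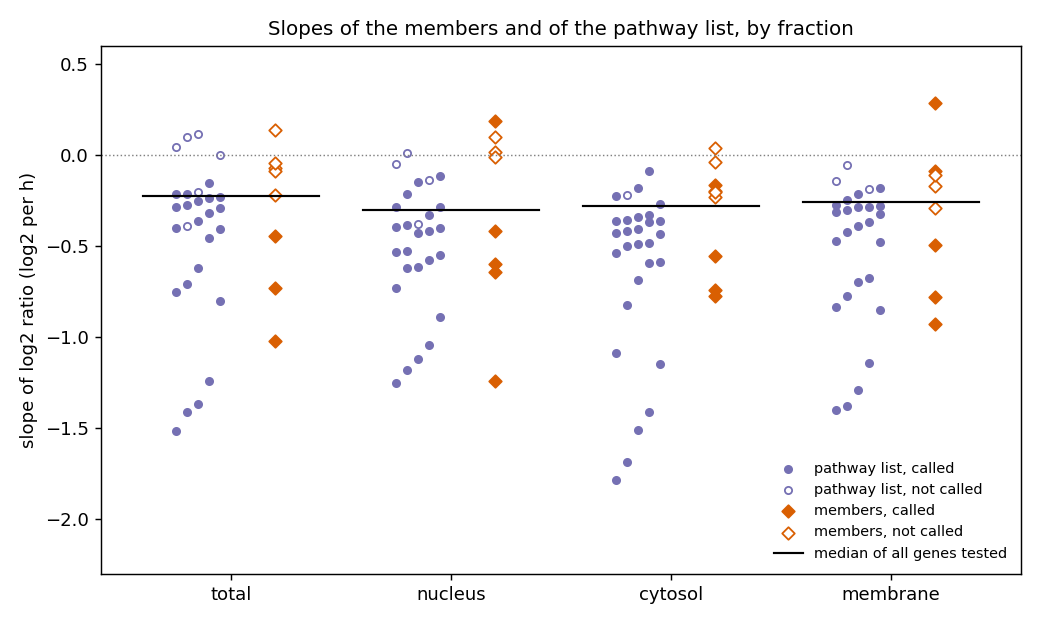
Slope of the log2 ratio on time (log2 per h) of each gene of the pathway list (circles) and each member (diamonds) tested in a fraction, with the median of all genes tested as a black line. Filled symbols had a limma adjusted p under 0.05. Most list genes lie below the black line in each fraction, while Cdk6 is the one filled symbol above 0, in nucleus and membrane fraction.

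Genes with the most similar course were ranked by the root mean square difference of 16 mean log2 ratios, 4 fractions at 4 times, over 8442 genes listed in all 48 libraries, predicted genes and pseudogenes left out. Nearest to Cdk4 were Ndufb10 (0.072 log2 units), Ppp1ca (0.081) and Jpt2 (0.085). Nearest to Ccne1 were Sdhaf2 and Cdk7 (both 0.115) and Orc2 (0.116), and nearest to Ccnd1 were Tubb3 (0.200), Rsph4a (0.201) and Camk1d (0.208). Cdkn1b had no close neighbour, with Rbbp6 at 0.452, Mcm6 at 0.506 and Frs3 at 0.507. These ranks describe likeness of values and nothing more.

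Each library listed between 15067 and 19501 genes. Of 8 embryonic stem cell markers 6 (Pou5f1, Sox2, Nanog, Tdgf1, Klf4 and Tfcp2l1) were listed in all 48 libraries, Zfp42 in 47 and Esrrb in 37. Of 4 fibroblast markers Col1a1 was listed in 44 libraries, Thy1 in 43, Col1a2 in 12 and Postn in 0, and of 4 markers of differentiated cells Sox1 was listed in 47, T in 46, Gata6 in 42 and Sox17 in 1. Every listed value was above 0, why a gene is missing from a library was not examined, and levels were not analysed here.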

How the data were processed

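Polyadenylated RNA of 48 libraries was analysed, 4 fractions at 4 times with 3 replicates, grouped by the sample titles. Per the labels and methods, the authors aligned reads with STAR 2.7.6 to mm10, counted them with RSEM 1.3.3, scaled libraries on genes with half-lives over 14 h and divided by the 0 min level. The deposited values are thus each a ratio to 0 min. No listed value is at or below 0, and depth is unknown. Decay of those reference genes would bias each slope upward. The titles give 240 min for the last harvest, the protocol text 180 min. The titles were followed.

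The R package limma 3.58.1 (R 4.3.3) was run on log2 ratios with no pseudocount (slope on time, interaction with fraction on 24 libraries, and the contrast of 240 with 120 min, added after the values had been seen), with trend, two-sided, and Benjamini-Hochberg adjusted p under 0.05 over all genes listed in all libraries fitted. A single exponential, A·exp(-kt), was fitted by least squares in Python 3.11.15 for half-lives. It was fitted to the ratios, so high early values weigh more in it than in the log2 slopes. Pairs of members were tested by exact permutation. The methods were tested on simulated data.

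All members were named. From the pathway list the 2 most negative and 2 most positive slopes past the threshold per fraction were named, with Cip/Kip and Cdc25 genes. For the most similar genes, predicted genes and pseudogenes were skipped. The members and lists were chosen with earlier results of these data known. Of 23862 identifiers 23786 matched a symbol. Positions and UTRs come from GENCODE on GRCm38, a later release than the study's.

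Alternatives covered pseudocounts of 0.1 and 1, filters, scaling, blocks, limma without trend, time windows, fit models, left-out replicates and leaving out the low nuclear 30 min library. The labels number the replicates, and the methods call them independently passaged. Whether the same number means the same passage at each time is not stated there. Deviations of same-numbered libraries of a fraction from the group means correlated at -0.088 to 0.273. Correlations were over 0.1 in 4 (total RNA), 0 (nucleus), 1 (cytosol) and 1 (membrane fraction) of 18 pairs. Fractions of 1 harvest come from the same cells, with deviations that correlated at -0.096 to 0.167.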

Additional observations from a re-analysis of the deposited data

Results flagged for a closer look

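For 3 members the slope differed between fractions by a test of the difference itself. Cdkn1b was steeper in the nucleus than in the cytosol by -0.46 ± 0.13 log2 per h (SE, limma interaction, adjusted p = 0.017), with slopes of -1.24 and -0.77. Cdk2 was steeper in the nucleus by -0.43 ± 0.14 (adjusted p = 0.034), with -0.60 and -0.16. Cdk6 was higher in the membrane fraction than in the cytosol by 0.25 ± 0.07 (adjusted p = 0.033), with 0.29 and 0.04. Each of the 3 missed the threshold when any 1 replicate was left out. Groups here have 3 libraries, and no test for outlying values was run in them.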

How the results depend on the processing

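Centring on the median gene shifted its slope by 0.22 to 0.30 log2 per h, scaling to the same total by 0.18 to 0.23, and scaling to mitochondrially encoded mRNAs by -0.13 to 0.17. Centred on the median gene, slopes that had been negative became positive for Ccnd1 (total 0.15, cytosol 0.087, membrane 0.092), Ccnd2 (0.14, 0.055 and 0.15), Ccnd3 (cytosol 0.08), Cdk2 (total 0.0053, cytosol 0.12) and Cdk4 (total 0.18, nucleus 0.28, cytosol 0.25, membrane 0.17). Scaled to the same total, they were 0.11, 0.035 and 0.037 for Ccnd1, 0.088, 0.0027 and 0.095 for Ccnd2, 0.028 for Ccnd3 and 0.065 for Cdk2 in the cytosol, and 0.13, 0.21, 0.19 and 0.12 for Cdk4. Members that rose then numbered 3 (total RNA), 4 (nucleus), 2 (cytosol) and 2 (membrane fraction) under both scalings, where 28.1%, 27.4%, 29.7% and 28.4% of all genes rose when centred and 21.4%, 18.2%, 22.2% and 21.2% with the same total. Of the members 3 still fell in the cytosol (32.4% and 36.9% of all genes), and those higher at 240 than at 120 min numbered 4 in total, nucleus and cytosol when centred (16.4%, 14.6% and 20.8% of all genes) and 2, 3 and 4 with the same total (7.98%, 5.92% and 9.87%). Centring gave 5 members that differed between nucleus and cytosol (27.1% of all genes).

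Scaled to mitochondrially encoded mRNAs, 6, 2 and 3 members fell in total RNA, nucleus and cytosol (71.1%, 24.2% and 29.5% of all genes), 0 rose in the membrane fraction (0.959%), and 0, 3 and 0 were higher at 240 than at 120 min in total, nucleus and cytosol (2.25%, 9.92% and 1.29%). Cdk4 then had slopes of 0.16 (nucleus) and 0.12 (cytosol), 0 and 5 members differed for nucleus against cytosol and nucleus against membrane (0.134% and 31.6% of all genes), and Cdk6 differed by -0.045 between membrane and cytosol and 0.20 between nucleus and membrane.

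With 30, 60 and 120 min alone, 5 members fell in total RNA (50.8% of all genes). In nucleus and membrane 0 rose (1.69% and 2.18%). Between nucleus and cytosol, membrane and cytosol, and nucleus and membrane, 1, 0 and 1 members differed (8.29%, 6.7% and 8.19% of all genes). In this window 1 pair passed. Nuclear slopes were then -0.27 for Ccnd1, -0.21 for Ccnd2 and 0.028 for Cdk4, Cdk6 had -0.044 in total RNA and -0.16 in the cytosol, and Cdk4 minus Cdk6 had 0.10 in the cytosol. With 180 min as the last time the nuclear slope of Ccnd1 was -0.0056. The cytosolic call at 240 min was lost (0 members) with a pseudocount of 1 (2.51% of all genes higher) and with genes listed in at least 9 libraries (2.25%).

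Leaving out each replicate gave 0 to 1 members that rose in the nucleus (1.97% to 2.47% of all genes). In the cytosol 3 to 5 fell (60.6% to 63.2%). At 240 min 0 to 1 members were higher in total RNA (1.95% to 5.07%) and cytosol (1.69% to 2.25%). In the membrane fraction 1 to 2 were higher (1.76% to 3.46%). Between nucleus and cytosol 0 members differed (4.84% to 11.1% of all genes), and likewise 0 between membrane and cytosol (1.93% to 2.98%). Of the pairs 0 to 3 passed. Slopes crossed 0 for Ccnd2 in total RNA (-0.17 to 0.0018) and nucleus (-0.023 to 0.24), Ccnd1 (-0.0098 to 0.058) and Cdk4 (-0.040 to 0.0082) in the nucleus, Cdk6 in the cytosol (-0.001 to 0.081), Ccnd1 minus Ccnd2 in total RNA (-0.058 to 0.081) and nucleus (-0.18 to 0.013), and the cytosolic difference of Ccnd1 between 240 and 120 min (-0.077 to 0.23). The cause of these changes was not tested.

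With a replicate block, 2, 0 and 1 members were higher at 240 min in total RNA, cytosol and membrane fraction, and Ccnd1 in the membrane fraction had an adjusted p of 0.051. Cdk6 passed with the block in total RNA (adjusted p = 0.035) and missed in the cytosol (0.053), and no slope call of a member changed. With the harvest as a block, added after the data had been seen, 5 members differed between nucleus and cytosol.

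Over all genes, those that fell ranged, in the order total RNA, nucleus, cytosol and membrane fraction, from 4041 to 9077, 3234 to 9542, 3538 to 8806 and 3828 to 9462 over these settings, and those that rose from 109 to 3590, 226 to 3662, 144 to 3553 and 119 to 3523. Genes higher at 240 min ranged from 249 to 2092, 61 to 1946, 155 to 2496 and 218 to 2251, lower ones from 1619 to 5234, 220 to 4492, 2848 to 5749 and 2827 to 4662, and genes that differed between fractions from 15 to 3044 (nucleus and cytosol), 214 to 2324 (membrane and cytosol) and 86 to 3678 (nucleus and membrane). These ranges cover the alternatives only. The main counts of genes lower at 240 min were above them in the nucleus (4571) and membrane fraction (4671). Depth is unknown, so counting error could not be separated from other scatter in Ccnd3, Ccne2 and Cdk2. Of 205 alternative values of half-lives, 55 moved by more than the SD over replicate series.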
